A study of Mus musculus with 285 samples.

Results

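Cyp2c29, Ces5a, Spred2, Ift81 and Pla2g12a are 5 genes, of 11622 named genes measured, that followed the slow fibre genes of mouse muscle although none of them codes for a part of the contractile apparatus. They were chosen by their measured correlation with a slow fibre score over all 285 mice, so their relation to slow fibre genes is a description and carries no test. All 6 probes annotated to them were used, 2 for Spred2 and 1 for each of the other 4 genes, and none of these probes had a missing value. Each sample was skeletal muscle RNA of 1 F2 mouse, female or male, whose F1 parents came from crosses of C57BL/6J with C3H/HeJ in either direction. Chow with 4% fat was fed up to 8 weeks of age and a Western diet holding 42% fat and 0.15% cholesterol over the next 12 weeks. Mice were killed 20 weeks old, 12 hours after their last food. RNA of each mouse carried Cy3 and a pool of equal portions of RNA from all samples carried Cy5 on a 2-colour oligonucleotide array. For a single mouse the labels give no muscle, sex, genotype or direction of cross, so the only grouping used is the mouse number in the title, from 51 to 362. Mice numbered 51 to 90 (36 mice) and 271 to 310 (40 mice) had low slow fibre genes. These runs of numbers form the inside set of 76 mice, and the other 209 mice, numbered 91 to 270 (160 mice) and 311 to 362 (49 mice), form the outside set. No label says that a run of numbers shares a day, a dissection or a slide.

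Skeletal muscle is a mixture of slow fibres, which contract slowly and resist fatigue, and fast fibres, which contract and tire quickly. Slow fibres carry their own forms of the contractile proteins, among them the slow myosin heavy chain Myh7 and the slow troponin T Tnnt1, the 2 genes of comparison here. The 5 genes belong to other systems. Cyp2c29 is a cytochrome P450 best known from liver, where enzymes of its family oxidise drugs and turn arachidonic acid into epoxides. Ces5a is a secreted carboxylesterase known from kidney and the male genital tract. Spred2 is a membrane-bound inhibitor of the Ras-ERK pathway related to the Sprouty proteins. Ift81 is a tubulin-binding subunit of the intraflagellar transport complex B, which carries cargo along cilia. Pla2g12a is a secreted phospholipase A2, a class of enzymes that release fatty acids from phospholipids. In whole muscle, fewer slow fibres and less RNA per slow fibre cannot be told apart.

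Because the members moved together, the 250 bases before the RefSeq start of each gene are shown on its own strand in GRCm38.p6, with every E-box, the letters CANNTG that bHLH factors such as MyoD can bind, in capitals. RefSeq windows were at hand for 4 of the 5 members, for Tnnt1 and, in 2 versions that are not printed, for Myh7. The windows are Cyp2c29 at chr19:39286835-39287084 on the plus strand, Ces5a at chr8:93535841-93536090 on the minus strand, Spred2 at chr11:19924192-19924441 on the plus strand, Pla2g12a at chr3:129880934-129881183 on the plus strand and Tnnt1 at chr7:4515976-4516225 on the minus strand.
Cyp2c29: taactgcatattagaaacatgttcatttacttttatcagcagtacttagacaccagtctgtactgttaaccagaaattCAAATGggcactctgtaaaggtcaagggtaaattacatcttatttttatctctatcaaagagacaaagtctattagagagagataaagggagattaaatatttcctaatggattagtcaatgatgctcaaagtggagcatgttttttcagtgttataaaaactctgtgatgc
Ces5a: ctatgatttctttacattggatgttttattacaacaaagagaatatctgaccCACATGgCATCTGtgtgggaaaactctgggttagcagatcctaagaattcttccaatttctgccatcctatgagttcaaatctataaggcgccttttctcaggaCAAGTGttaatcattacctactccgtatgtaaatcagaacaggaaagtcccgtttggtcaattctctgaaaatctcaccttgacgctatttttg
Spred2: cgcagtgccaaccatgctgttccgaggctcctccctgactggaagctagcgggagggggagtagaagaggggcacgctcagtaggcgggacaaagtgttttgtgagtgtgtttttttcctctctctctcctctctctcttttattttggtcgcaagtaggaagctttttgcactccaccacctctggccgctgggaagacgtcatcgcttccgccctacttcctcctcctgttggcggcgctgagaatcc
Pla2g12a: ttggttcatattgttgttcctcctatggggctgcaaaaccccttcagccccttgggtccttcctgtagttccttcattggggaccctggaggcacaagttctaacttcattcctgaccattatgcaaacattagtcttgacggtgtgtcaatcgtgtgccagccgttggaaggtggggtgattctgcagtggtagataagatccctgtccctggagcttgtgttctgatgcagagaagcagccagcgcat
Tnnt1: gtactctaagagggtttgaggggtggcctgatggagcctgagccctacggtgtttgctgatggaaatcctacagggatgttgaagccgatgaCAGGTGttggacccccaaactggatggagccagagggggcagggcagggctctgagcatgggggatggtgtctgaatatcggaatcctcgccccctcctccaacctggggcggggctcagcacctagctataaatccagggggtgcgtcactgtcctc
Ces5a held 3 E-boxes, Cyp2c29 and Tnnt1 held 1 each, and Spred2 and Pla2g12a held 0, while 66.2% of 32851 RefSeq promoter windows of the same length held at least 1. Cyp2c29 and Tnnt1 each held 1 TATA box (TATAAA, found in 12.4% of all windows). Pla2g12a held 1 MCAT element (CATTCC, 12.6%), as did 1 of the 2 Myh7 windows, and none of the other printed windows did. The Myh7 windows held 1 and 2 E-boxes. The NFAT core GGAAA, found in 55.6% of windows, occurred in Cyp2c29 (1), Ces5a (2), Spred2 (1) and Tnnt1 (1). CCAAT lay in Ces5a at 2 places and in Pla2g12a at 1 place (33.8% of all windows), and the GC box GGGCGG in Spred2 and Tnnt1 at 1 place each (32.7%). No match to MEF2 (2.92% of windows) or to MEF3 (TCAGGTT, 3.49%) was found in these 5 windows. Motifs were read on both strands, and a match describes letters, not a bound site. GC content ran from 32.8% in Cyp2c29 and 38.4% in Ces5a to 50.8% in Pla2g12a, 56% in Spred2 and 59.2% in Tnnt1, against a median of 52.4% over all windows.

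Values below are log2 ratios of mouse over pool, so 0 is the level of the pool and a level can be compared between mice but not between genes. The labels give the dyes but neither the sign nor the base of the ratio. A pool of all mice should give a mean linear ratio near 1, and the mean was 0.922 for Tnnt1 and 0.792 for Myh7 read as mouse over pool in base 10, against 3.21 and 5.52 with the sign turned. Read in base 2 these means would be 0.907 and 0.868, so the base is not settled by them, and for the liver gene Fabp1 base 2 gave 0.881 and base 10 gave 2.58. Folds are given for base 10. A base of 2 would scale all log2 values down alike and leave correlations as they are. Pairs of arrays correlated from -0.743 to 0.804, and 2.35% of pairs lay below -0.3, which mice on opposite sides of a pool can give. Within arrays the SD over all features ran from 0.17 to 0.60 with a median of 0.29, and 12 arrays had an outlying spread. Since every value is a ratio to the same tissue, markers cannot check the tissue named in the labels. The files hold no signal intensities, so how far a probe stood above background is unknown, and the number of arrays limits the precision. P-values measure the spread between these mice.

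Levels of all 5 genes were lower in the mice numbered 51 to 90 and 271 to 310 than in the rest, by 1.28-fold to 1.71-fold between medians, while Myh7 was 11.1-fold and Tnnt1 9.23-fold lower. Tnnt1 had a median of -3.08 inside the runs (lowest -4.34, highest 0.75) and 0.13 outside them (lowest -3.11, highest 1.79). Myh7 had a median of -3.47 inside (lowest -5.93, highest 0.25) and 0.00 outside (lowest -3.43, highest 1.30). For each of these comparison genes, 1 of the 76 inside mice lay above the outside median.

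Ces5a, the carboxylesterase, had the widest gap of the 5 genes where the Spred2 probes are averaged. Its inside mice lay between -1.56 and 0.47 with a median of -0.73, and its outside mice between -0.95 and 1.50 with a median of 0.04. The ranges overlapped widely, yet 2 of 76 inside mice exceeded the outside median and 5 of 209 outside mice fell short of the inside median. Pla2g12a, the phospholipase, had a median of -0.35 inside (lowest -1.26, highest 0.40) and 0.14 outside (lowest -0.50, highest 0.74), 1.40-fold apart. Here 4 inside mice lay above the outside median and 6 outside mice below the inside median.

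Ift81, the ciliary transport gene, had a median of -0.29 inside (lowest -1.16, highest 0.81) and 0.16 outside (lowest -0.78, highest 1.61), 1.36-fold apart. The overlap was larger from the outside, where 24 of 209 mice lay below the inside median. Cyp2c29, the P450, had a median of -0.37 inside (lowest -0.59, highest 0.20) and -0.01 outside (lowest -0.46, highest 0.66), 1.28-fold apart. Its gap was the narrowest of the 5, but so was its spread, with an SD of 0.15 inside and 0.21 outside, and 3 inside mice exceeded the outside median.

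**Figure D1:**
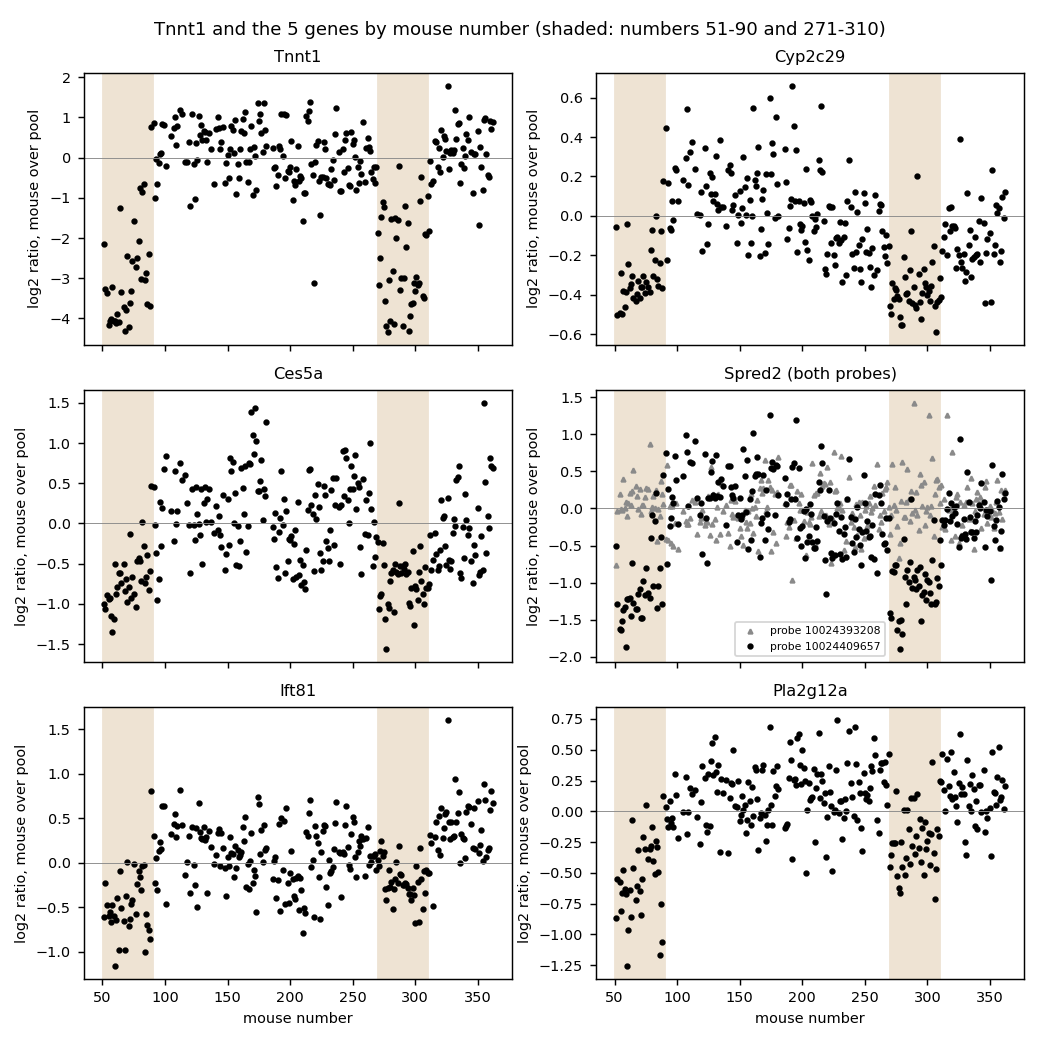
Log2 ratio of mouse over pool (vertical axis) against mouse number (horizontal axis) for Tnnt1 and the 5 genes, 1 point per mouse, with numbers 51 to 90 and 271 to 310 shaded. Spred2 shows its 2 probes by separate symbols. Most shaded points lie low for Tnnt1, Cyp2c29, Ces5a, Ift81, Pla2g12a and Spred2 probe 10024409657. Probe 10024393208 of Spred2 scatters around 0, from -0.96 to 1.43, and is not low in the shaded numbers.

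The 2 probes of Spred2, the ERK pathway inhibitor, did not measure the same variation. Probe 10024409657 had a median of -1.09 inside (lowest -1.90, highest 0.44) and -0.08 outside (lowest -1.40, highest 1.25), 2.01-fold apart. That is a wider gap than any of the other 4 genes had. Probe 10024393208 had a median of 0.07 inside (lowest -0.76, highest 1.43) and -0.02 outside (lowest -0.96, highest 1.26), so the groups overlapped almost fully and 53 of 76 inside mice lay above the outside median. Over all 285 mice the 2 probes correlated at a Pearson r of -0.191, and over the 209 outside mice at -0.119. Their mean, used wherever Spred2 is named without a probe, was 1.37-fold lower inside than outside. The annotation pairs both probes with Spred2, and which transcript each one binds is not given in the sources used here.

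For the members these group differences were fixed by how genes and runs were chosen. The fit over all 21512 genes and unnamed probes, with limma and a Benjamini-Hochberg adjusted p under 0.05, called 17.3% of features lower and 14.2% higher inside the runs, and all 5 members were among the lower ones, from which nothing is read. Other cell types differed between the sets too. Of the slow fibre markers 9 of 9 measured were lower inside, of tendon markers 7 of 8 were higher, of macrophage markers 5 of 8 were higher and 1 lower, and of brown adipocyte markers 4 of 5 were higher. The mean log2 level of the 8 tendon markers, which include Tnmd, Fmod and Comp, ran from -1.23 to 2.04 inside (median 1.35) and from -1.51 to 1.72 outside (median -0.56). Of 13 hepatocyte markers 1 was lower and 0 higher, of 10 kidney markers 2 were lower and 1 higher, and of 4 epididymis markers 0 were lower and 1 higher. Of 5 fast fibre markers 0 were lower and 2 higher, with a median difference of 0.03. Of 5 endothelial markers 2 were lower and 1 higher, and of 3 Schwann markers 2 were lower and 0 higher. Of 6 white adipocyte markers 1 was lower and 0 higher, and of 3 ciliated epithelium markers 0 were called. The part of these cell types in the gap of the 5 genes was not tested.

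Some mice at the borders of the runs, and some at the ends of the ranges, moved in the slow fibre genes and in several members at once, though not always in all. Mouse 89, the last of its run, had Tnnt1 at 0.75 and Myh7 at 0.25, and was also the highest inside mouse for Ces5a (0.47), Spred2 (0.26) and Ift81 (0.81). Its neighbours by number were mouse 88, with Tnnt1 at -3.69 and Ces5a at -0.59, and mouse 91, with Tnnt1 at 0.86 and Ces5a at 0.45. At the lower edge of the other run, mouse 270, counted as outside, had Tnnt1 at -1.88, and was the lowest outside mouse for Cyp2c29 (-0.46) and Spred2 (-0.87), while its Ift81 stood at 0.03. Mouse 271, counted as inside, had Tnnt1 at -3.17, Cyp2c29 at -0.50 and Ift81 at -0.03. At its upper edge, mouse 310 had Tnnt1 at -0.96 and Ces5a at -0.80, and mouse 311, counted as outside, had Tnnt1 at -1.81 and Ces5a at -0.75. Pla2g12a did not go with them, at 0.25 in mouse 310 and 0.24 in mouse 311, above its outside median of 0.14. Mouse 219, far from any border, had the lowest outside Tnnt1 (-3.11), with Cyp2c29 at -0.30, Ces5a at -0.60, Spred2 at -0.62, Ift81 at -0.61 and Pla2g12a at -0.37. Mouse 326 had the highest Tnnt1 of all (1.79) and the highest Ift81 (1.61).

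The members also correlated with Tnnt1 among the mice within each set. This is a description, since the members were chosen over the mice of both sets. Over the 209 outside mice, r with Tnnt1 was 0.738 for Ift81, 0.723 for Spred2, 0.663 for Cyp2c29, 0.532 for Ces5a and 0.355 for Pla2g12a. The median of the 5 was 0.663, and the median over all features was -0.000644, with a 95th percentile of 0.224 and a 99th of 0.370, but the members had been picked for this. Ranks gave a like picture, with Spearman rho of 0.763, 0.725, 0.681, 0.567 and 0.300 in the same order. Over the 76 inside mice, r was 0.716 for Spred2, 0.671 for Ift81, 0.634 for Pla2g12a, 0.569 for Ces5a and 0.555 for Cyp2c29.

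Pla2g12a had a lower r with Tnnt1 outside the runs than inside them. Outside the runs its r of 0.355 placed it 262nd among all features, while Ift81 was 10th, Spred2 11th, Cyp2c29 12th and Ces5a 23rd. Within number ranges, r of Pla2g12a with Tnnt1 was 0.668 in mice 51 to 90 and 0.649 in mice 271 to 310, against 0.367 in mice 91 to 270 and 0.308 in mice 311 to 362. Ift81 had 0.801, 0.542, 0.764 and 0.814 in these ranges, in the same order. With Eif2s3y, a Y-linked gene, held fixed, Pla2g12a had 0.444, 0.567, 0.265 and 0.384 in mice 51 to 90, 271 to 310, 91 to 270 and 311 to 362, and Ift81 had 0.716, 0.258, 0.616 and 0.778. The difference between ranges was not tested.

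Probe 10024409657 of Spred2 followed Tnnt1 more closely than any of the other probes, with r of 0.851 inside, 0.839 outside and 0.909 over all mice. Its line on Tnnt1 accounted for 70.4% of its variance outside the runs and left a residual SD of 0.25. Probe 10024393208 had r of 0.073 inside and -0.011 outside. The mean of both probes therefore understates the first probe.

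Slopes on Tnnt1 were shallow and, for 4 genes, shallower inside the runs. A Tnnt1 difference of 1 log2 unit went with a difference of 0.199 ± 0.016 (slope ± SE) in Cyp2c29 outside and 0.070 ± 0.012 inside. For Ces5a the slope was 0.376 ± 0.042 outside and 0.159 ± 0.027 inside, and for Ift81 0.368 ± 0.023 outside and 0.183 ± 0.024 inside. Spred2 probe 10024409657 had 0.537 ± 0.024 outside and 0.329 ± 0.024 inside. Pla2g12a went the other way, with 0.122 ± 0.022 outside and 0.172 ± 0.024 inside. Myh7 itself had a slope of 0.65 ± 0.03 on Tnnt1 outside and 1.40 ± 0.03 inside. These slopes are descriptions, and their difference between the sets was not tested.

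**Figure D2:**
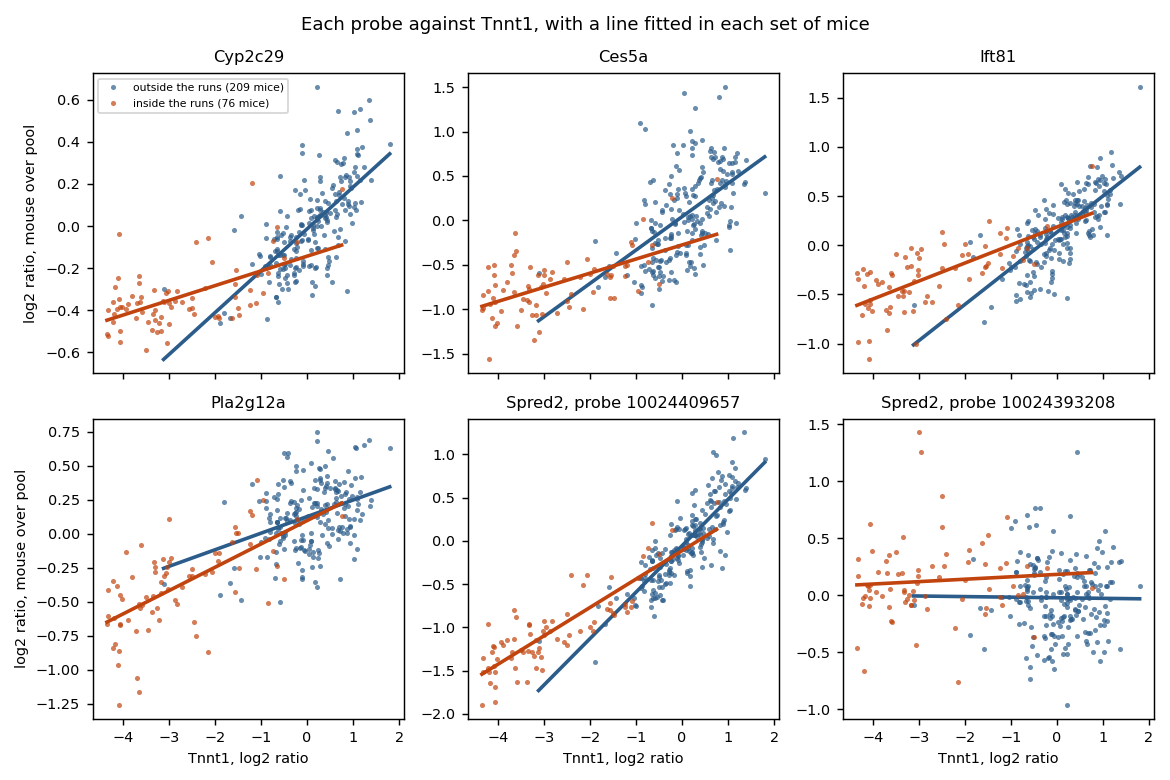
Log2 ratio of each of the 6 probes (vertical axis) against that of Tnnt1 (horizontal axis), 1 point per mouse, for 209 mice outside and 76 mice inside the number runs, with a least-squares line for each set. Spred2 probe 10024409657 has the highest r, 0.839 outside and 0.851 inside, and probe 10024393208 shows no slope. Cyp2c29 points lie closer to their line, with a residual SD outside of 0.16 against 0.25 for probe 10024409657.

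Myh7 gave weaker relations than Tnnt1 outside the runs. There r with Myh7 was 0.613 for Ift81, 0.492 for Spred2, 0.415 for Cyp2c29, 0.391 for Ces5a and 0.256 for Pla2g12a. Myh7 and Tnnt1 themselves correlated at 0.824 outside and 0.979 inside. With Myh7 held fixed, the outside partial correlations with Tnnt1 were 0.62 for Cyp2c29, 0.64 for Spred2, 0.52 for Ift81, 0.40 for Ces5a and 0.26 for Pla2g12a. With Tnnt1 held fixed, those with Myh7 were -0.31 for Cyp2c29, -0.26 for Spred2, -0.10 for Ces5a, -0.07 for Pla2g12a and 0.01 for Ift81. With Tnnt1 in the fit, the inside minus outside difference (± SE) was 0.04 ± 0.04 for Cyp2c29, -0.03 ± 0.10 for Ces5a and -0.10 ± 0.06 for Pla2g12a. It was 0.20 ± 0.05 for Spred2 and 0.30 ± 0.06 for Ift81. The gap thus shrank for Cyp2c29, Ces5a and Pla2g12a. It turned positive for Spred2 and Ift81, and for Cyp2c29 only by about its SE. This fit uses 1 Tnnt1 slope for both sets, although slopes differed between them. Tnnt1 medians were far apart, at -3.08 inside and 0.13 outside, so the adjusted differences rest largely on extrapolation.

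Once the slow fibre genes were accounted for, the 5 genes no longer correlated in 1 direction. Outside the runs the 10 pairs of members correlated with a median r of 0.361, from -0.013 for Ces5a with Pla2g12a to 0.60 for Cyp2c29 with Spred2. After a linear fit on Tnnt1 and Myh7 the median was -0.067, and 3 of 10 pairs stayed above 0. The lowest was -0.55, for Cyp2c29 with Ift81. Inside the runs the median went from 0.489 to 0.097, with 6 of 10 pairs above 0, from -0.44 for Cyp2c29 with Ift81 to 0.45 for Ift81 with Pla2g12a.

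Of the Spred2 probes, 10024409657 correlated with Cyp2c29 at 0.863 outside and at 0.733 after the fit on Tnnt1 and Myh7. Inside the runs this pair had r of 0.710 before and 0.42 after the fit. With Ift81 the same Spred2 probe had 0.493 before and -0.353 after the fit. The first principal component of all features outside the runs, which holds 15.8% of the variance and is signed here with Ift81, separated the same genes. After Tnnt1 was accounted for, it correlated at -0.765 with Cyp2c29, -0.605 with Spred2 probe 10024409657, -0.011 with Ces5a, 0.371 with Pla2g12a and 0.646 with Ift81. Points here share arrays and their normalization, and no p is attached to these values.

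**Figure D3:**
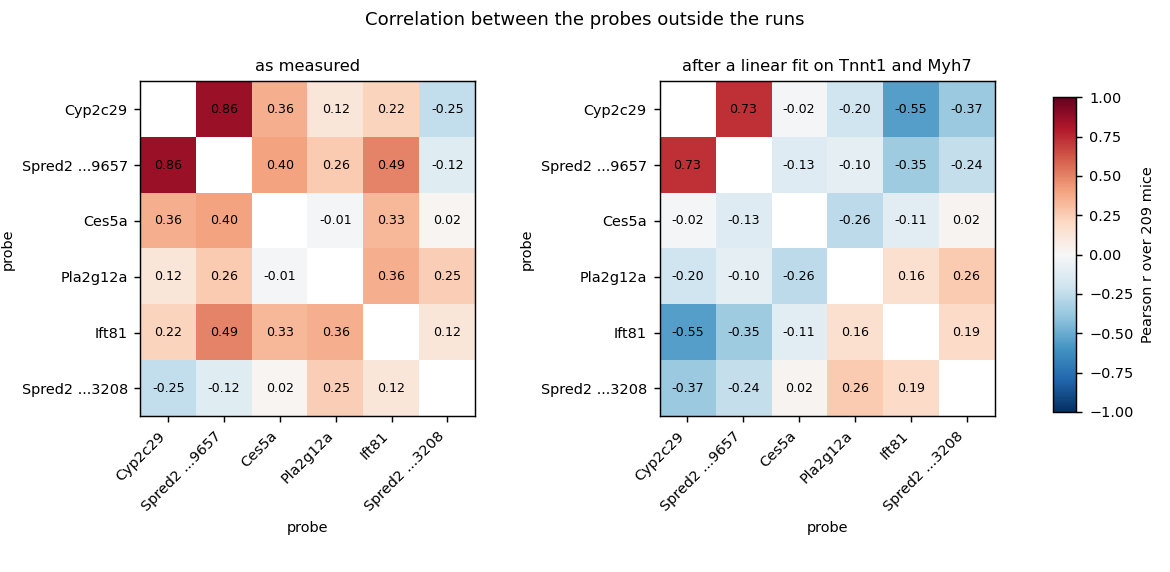
Pearson r between the 6 probes of the 5 genes over the 209 mice outside the runs, as measured (left) and after a linear fit on Tnnt1 and Myh7 (right), by colour from -1 to 1 with the value printed in each cell and Spred2 probes named by their last 4 digits. Cyp2c29 and Spred2 probe 10024409657 keep an r of 0.733 on the right, and Cyp2c29 with Ift81 goes from 0.223 to -0.55.

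The genes most like each member by Pearson r told the members apart. Ift81 outside the runs was closest to the slow tropomyosin gene Tpm3 (0.826), the slow fibre and heart calcium pump gene Atp2a2 (0.788) and Tnnt1 (0.738). Inside them it was closest to the junction protein gene Jam3 (0.810), Atp2a2 (0.776) and Pdlim1 (0.773), a PDZ and LIM domain protein of actin filaments. Spred2 was closest to Tnnt1, the slow and cardiac troponin C gene Tnnc1 and the slow myosin light chain gene Myl2 in both sets, at 0.723, 0.714 and 0.704 outside and 0.716, 0.720 and 0.698 inside. Its probe 10024409657 reached 0.865 with Myl2, 0.863 with Cyp2c29 and 0.859 with Tnnc1 outside, while probe 10024393208 was closest to the histamine receptor gene Hrh4 (0.663).

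Cyp2c29 outside the runs was closest to the synaptic scaffold gene Homer2 (0.746), Myl2 (0.720) and Itgb1bp1 (0.716), which codes for an integrin-binding protein. Inside them it was closest to Tjp3 (0.667), Dct (0.616) and Reep6 (0.606), and the r of Tjp3 with Cyp2c29 was 0.008 outside. Ces5a was closest to Csrp3 (0.601), a muscle LIM protein, Rab15 (0.598) and Slc66a2 (0.594) outside, and to Spred2 (0.604), Tnnc1 (0.594) and Tnnt1 (0.569) inside. Pla2g12a was closest to genes of metabolism outside, namely the peroxisomal membrane protein gene Pxmp2 (0.660), the aspartate aminotransferase gene Got1 (0.620) and the galactose pathway gene Galt (0.595). Inside, Got1 came first (0.858), before Arpp21 (0.809) and Pde8a (0.803). None of these 3 closest outside genes of Pla2g12a is a slow fibre marker, and their own r with Tnnt1 there was 0.442, 0.150 and 0.057.

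Of the 13 measured genes within 20 gene places of Ift81 on chromosome 5, Atp2a2 lay 3 places away with r of 0.788 outside and 0.776 inside. After Tnnt1 was accounted for, r outside was 0.53. Myl2 lay 18 places away from Ift81 on the same chromosome, with r of 0.70 before and 0.04 after. The spans of Ift81 and Atp2a2 do not overlap in RefSeq. The median r of the 13 neighbours with Ift81 was -0.089. F2 mice inherit long stretches of chromosome together, and the genotypes were not analysed here.

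Cyp2c29 lies in a Cyp2c cluster on chromosome 19, and of its 15 measured neighbours Cyp2c54, 10 places away, had an r of 0.521 with it outside the runs (0.70 after Tnnt1, 0.40 inside) and Cyp2c39, next to it, 0.486 (0.58 after Tnnt1, 0.48 inside). Tbc1d12, 8 places away, had 0.37 (0.56 after Tnnt1, -0.0029 inside). Other neighbours went the other way, with Aldh18a1 at -0.37 and Hells at -0.28 outside. The median r of the 15 neighbours with Cyp2c29 was 0.193, against 0.049 over all features. Their median absolute r was 0.198, against 0.212 over all features. The r with Tnnt1 was -0.0020 for Cyp2c54 and 0.085 for Cyp2c39. The Cyp2c genes are close copies of each other, so a probe of 1 gene may also bind the RNA of another, and no probe sequence was at hand to check it. Pla2g12a on chromosome 3 had its highest neighbour r with Egf (0.40, 8 places away), and Ces5a on chromosome 8 reached 0.216 at most among 13 neighbours. Spred2 on chromosome 11 had 4 measured neighbours.

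Relatives of the 5 genes from fixed family lists did not enter the choice of the 5. Few of them were called in a fit on Tnnt1, as was true of features in general, so nothing is read from their number. In the limma fit on Tnnt1 over the 209 outside mice, 7.54% of features rose with it and 6.48% fell at an adjusted p under 0.05. Of 12 measured relatives of Cyp2c29 in the Cyp2c and epoxide list, 2 rose, Cyp2j6 by 0.08 ± 0.01 per SD of Tnnt1 (r = 0.41) and Cyp2c40 by 0.05 ± 0.02, and 0 fell. The median slope of these relatives was 0.02. Of 7 other carboxylesterase genes 2 rose, Ces1d by 0.29 ± 0.04 and Ces1e by 0.14 ± 0.04, with a median of 0.06.

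In the remaining families the counts were lower or of both signs. Of 14 Spred, Sprouty and Ras-ERK genes 0 rose and 1 fell, the kinase gene Map2k1 by 0.04 ± 0.01, and the nearest relative Spred1 had a slope of -0.0020 ± 0.007. Of 11 intraflagellar transport genes Ift20 rose by 0.05 ± 0.01 and Ttc21b fell by 0.15 ± 0.02. Of 18 phospholipase A2 genes 0 rose and 2 fell, Pla2g7 by 0.27 ± 0.04 and Plaat3 by 0.05 ± 0.02. Median slopes in these lists were -0.0076, -0.0014 and -0.012 in the same order, and that over all features was -0.00015. For comparison, 8 of 8 other slow fibre markers rose with Tnnt1. Inside the runs, where 3.52% of all features rose with Tnnt1 and 3.25% fell, Cyp2j6 (0.12 ± 0.02), Ephx2 (0.16 ± 0.05) and Ces1d (0.31 ± 0.07) rose, Pla2g7 fell by 0.28 ± 0.06 and Plaat3 by 0.12 ± 0.03, and no other relative passed the test.

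Levels of 2 members differed between the 2 low runs themselves. This contrast was not the one used to choose the members, but the choice drew on these mice too. Ift81 was lower in mice 51 to 90 (mean -0.46 ± 0.37 SD, n = 36) than in mice 271 to 310 (-0.20 ± 0.22, n = 40), a difference of -0.26 ± 0.07 (SE) with an adjusted p of 0.000885 in limma. Pla2g12a was lower in the same mice (-0.54 ± 0.32 against -0.24 ± 0.25), by -0.31 ± 0.06 with an adjusted p of 5.80e-05. The ranges overlapped for both genes, from -1.16 to 0.81 against -0.68 to 0.24 for Ift81 and from -1.26 to 0.13 against -0.71 to 0.40 for Pla2g12a.

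In this contrast 27.7% of all features were called higher and 20.2% lower, so a call is common. Cyp2c29 differed by 0.07 ± 0.03 (adjusted p = 0.0782), and was called with Tnnt1 (0.09, 0.00349) or Eif2s3y (0.08, 0.0317) as a covariate or without outlying arrays (0.09, 0.0199). Ces5a differed by 0.04 ± 0.08 (0.712) and Spred2 by -0.03 ± 0.07 (0.741). Myh7 and Tnnt1 differed by -0.78 ± 0.38 (0.0812) and -0.31 ± 0.27 (0.360). With the first principal component of the inside mice as a covariate both called differences turned, to 0.16 for Ift81 (adjusted p = 0.164) and 0.12 for Pla2g12a (0.307). In mice 51 to 90, 7 of 8 tendon markers and 4 of 5 brown adipocyte markers were lower and 1 of each higher, and their part was not tested.

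Among the outside mice, Ift81, Cyp2c29 and Ces5a differed between number ranges and did so in different directions. Ift81 was higher in mice 311 to 362 (0.40 ± 0.33 SD, n = 49) than in mice 91 to 270 (0.09 ± 0.33, n = 160), by 0.31 ± 0.05 (SE) with an adjusted p of 1.50e-07. Cyp2c29 was lower there (-0.12 ± 0.17 against 0.04 ± 0.21), by -0.15 ± 0.03 with an adjusted p of 2.29e-05, and Ces5a was lower (-0.10 ± 0.49 against 0.12 ± 0.49), by -0.22 ± 0.08 with 0.0114. Each pair of ranges overlapped. Levels also varied along the numbers within mice 91 to 270, which the fit did not account for. There the Cyp2c29 median was 0.17 in mice 91 to 110 and -0.17 in mice 251 to 270. It was -0.17 in mice 311 to 330 and 0.0004 in mice 351 to 362. The Ift81 median was 0.29 in mice 91 to 110 and -0.18 in mice 191 to 210. That of Ces5a was 0.41 in mice 151 to 170 and -0.20 in mice 191 to 210. The p-values cannot tell a step between ranges from a drift along the numbers.

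Spred2 differed by -0.03 ± 0.04 (0.507) and Pla2g12a by 0.01 ± 0.04 (0.915), and Tnnt1 by 0.09 ± 0.11 (0.519), while Myh7 was higher by 0.30 ± 0.09 (0.00212). Background calls were 22% higher and 36% lower. With the first principal component as a covariate the Cyp2c29 difference was -0.02 (adjusted p = 0.645), and Pla2g12a was called lower, by -0.11 (0.0203). In mice 311 to 362, 7 of 8 tendon, 5 of 6 white adipocyte and 4 of 5 brown adipocyte markers were higher, and 5 of 5 oxidative phosphorylation genes and 7 of 10 kidney markers were lower. Their part was not tested.

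Among relatives in the same families, some moved between number ranges. In mice 51 to 90 against 271 to 310, the Sprouty genes Spry1 and Spry2 fell by 0.87 ± 0.10 and 0.77 ± 0.10, the soluble epoxide hydrolase gene Ephx2 fell by 0.57 ± 0.07, Pla2g4e fell by 0.66 ± 0.12 and Ift20 rose by 0.30 ± 0.03. In mice 311 to 362 against 91 to 270, Spry1 rose by 0.50 ± 0.08, Pla2g4a by 0.39 ± 0.06 and Ift88 by 0.20 ± 0.03, while Cyp2c38 fell by 0.39 ± 0.06. In the first contrast, where 27.7% of features rose and 20.2% fell, 2 rose and 4 fell of 14 Ras-ERK genes, 1 and 3 of 12 Cyp2c and epoxide genes, 1 and 0 of 7 carboxylesterases, 4 and 1 of 11 intraflagellar transport genes and 3 and 5 of 18 phospholipases. In the second, where 22% rose and 36% fell, these counts were 4 and 6, 2 and 3, 0 and 2, 2 and 3, and 3 and 8 in the same order.

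Cyp2c29 and many carboxylesterases are liver genes, and some muscle samples had high levels of hepatocyte genes, so the members were set against a hepatocyte score. The mean log2 level of 13 hepatocyte markers, such as Apoa1, Ttr and Fabp1, ran from -0.95 to 3.89 outside the runs with a median of -0.28. A score from their z values was used as the slope variable in limma over the 209 mice, where 5.2% of features rose with it and 7.88% fell. Cyp2c29 had a slope of 0.00 ± 0.01 per SD of the score (r = 0.011, adjusted p = 0.942). Of its 12 measured relatives 7 rose and 0 fell, among them Cyp2j5 (r = 0.79), Cyp2c70 (0.81), Cyp2c50 (0.81) and Cyp2c37 (0.76). A low r was not particular to Cyp2c29, since Cyp2c54 had 0.062, Cyp2c55 0.094 and Cyp2c39 0.153.

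The score rests on few mice, and ranks changed part of the picture. The 10 mice of highest score held 64.8% of its sum of squares. In these 10 mice Cyp2c70 ran from 0.38 to 4.46, against a median of 0.04 in the other outside mice. Cyp2c29 ran from -0.24 to 0.56 in them, against a median of -0.02. With ranks of the score in its place, the slope of Cyp2c29 was -0.04 (adjusted p = 0.0102), so Cyp2c29 fell with the score on that scale. That fit called 8107 of 21499 features, so a call was common, and it did not hold mouse number fixed. The Cyp2c29 median itself fell along the numbers, from 0.17 in mice 91 to 110 to -0.17 in mice 251 to 270. The part of mouse number in the rank slope was not tested. Spearman rho with the score was 0.55 for Cyp2j5, 0.42 for Cyp2c70, 0.39 for Cyp2c50 and 0.30 for Cyp2c37, and -0.22 for Cyp2c29. Among other relatives rho was -0.28 for Cyp2c54, -0.10 for Cyp2c39 and 0.11 for Cyp2c55. The difference between Cyp2c29 and its relatives was not tested.

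Ces5a stood near the threshold, with a slope of 0.09 ± 0.03 (r = 0.185, adjusted p = 0.0514), which was called in 3 alternative fits and had an adjusted p of 0.261 with ranks. Its relatives Ces1c (r = 0.88), Ces1e (0.75), Ces1g (0.70), Ces3b (0.30) and Ces3a (0.24) rose, 5 of 7 in all, and 0 fell. The Spearman rho was 0.79 for Ces1c, 0.27 for Ces1e and -0.23 for Ces3b. Of the 3 mice with the highest scores, mouse 355 (score 3.73) had Ces5a at 1.50, the highest of the outside mice, mouse 215 (4.99) at 0.66 and mouse 213 (3.59) at -0.33. Ift81 had a slope of 0.06 ± 0.02 (adjusted p = 0.0762), Pla2g12a 0.03 ± 0.02 (0.296) and Spred2 -0.01 ± 0.02 (0.774).

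**Figure D4:**
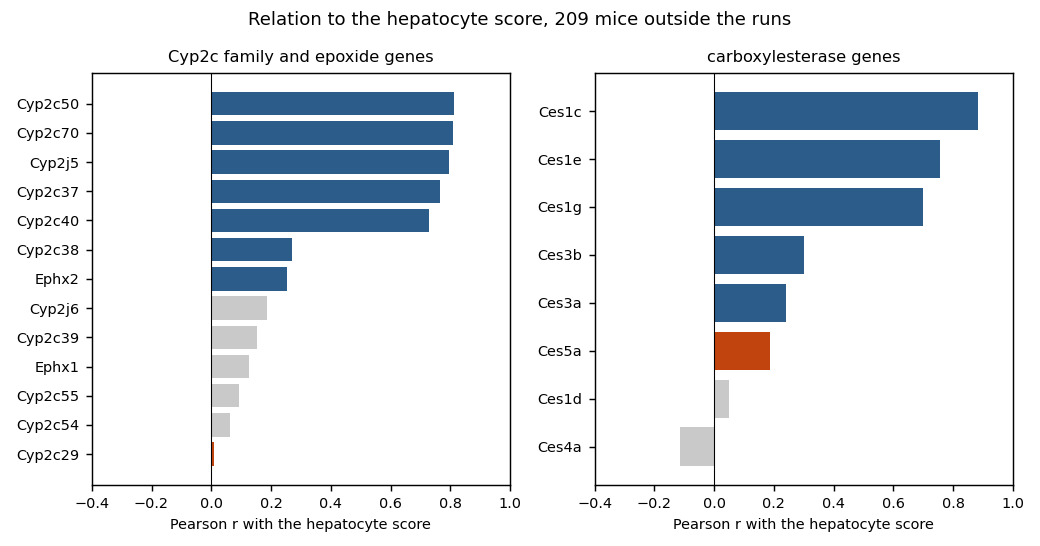
Pearson r (horizontal axis) with the hepatocyte score over the 209 outside mice for Cyp2c29 and its family list (left) and Ces5a and other carboxylesterases (right), with members in orange, relatives called in limma in blue and relatives not called in grey. Cyp2c29 stands at 0.011 and Ces5a at 0.185, below 0.81 for Cyp2c50 and 0.88 for Ces1c, and few mice of high score carry these values. Some relatives are low too, with Cyp2c54 at 0.062 and Ces1d at 0.049.

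Of the other marker scores, that of white adipocytes moved with 2 members. Pla2g12a fell by 0.08 ± 0.02 per SD of the score (adjusted p = 4.74e-06) and Ces5a by 0.09 ± 0.03 (0.0163), where 22% of features rose and 27.1% fell. Cyp2c29 had a slope of -0.02 ± 0.01 (0.352), Ift81 0.00 ± 0.02 (0.893) and Spred2 -0.03 ± 0.02 (0.145). Both calls held with Tnnt1, the first principal component or mouse number as a covariate.

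With the tendon score, Ift81 rose by 0.09 ± 0.02 (0.000791) and Cyp2c29 fell by 0.05 ± 0.01 (0.00294), against 18.7% of features rising and 31.5% falling. Neither call was kept with mouse number or the first principal component as a covariate. Ces5a had a slope of -0.06 ± 0.03 (0.131), Pla2g12a 0.01 ± 0.02 (0.623) and Spred2 -0.01 ± 0.02 (0.556).

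Scores of kidney markers and of oxidative phosphorylation genes moved with most of the array, so calls on them are close to the background. With the oxidative phosphorylation score 41.8% of features rose and 33.2% fell. Cyp2c29 rose by 0.10 ± 0.01 (adjusted p = 1.38e-13), Ift81 fell by 0.13 ± 0.02 (8.05e-08) and Pla2g12a fell by 0.06 ± 0.02 (0.00117). With the kidney score, 38.3% rose and 30.4% fell, Cyp2c29 rose by 0.07 ± 0.01 (4.83e-07), Ift81 fell by 0.14 ± 0.02 (2.10e-08) and Pla2g12a fell by 0.07 ± 0.02 (9.00e-05). None of these 6 calls was kept with the first principal component as a covariate. Ces5a, which is known from kidney, had a slope of 0.03 ± 0.03 (0.375) on the kidney score.

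The Spred2 probes took opposite directions on both scores. Probe 10024409657 rose by 0.13 ± 0.03 with the oxidative phosphorylation score (adjusted p = 2.61e-05) and by 0.07 ± 0.03 with the kidney score (0.0291), and probe 10024393208 fell by 0.11 ± 0.02 (9.56e-07) and 0.12 ± 0.02 (1.05e-07). Their mean had slopes of 0.01 ± 0.02 and -0.02 ± 0.02, called on neither score. A value for Spred2 as a whole thus hides 2 probes that differ in direction.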

How the data were processed

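Muscle RNA of 285 mice was compared with a common pool on 2-colour arrays, and the table the authors deposited was taken to hold log10 ratios, a unit the labels do not state. The scanner, background correction and dye normalization are not given in the sources used here. Array medians of the deposited values lay between -0.022 and 0.017, and 471 and 178 values stood at the upper and lower bound. Of 23560 probes, the 23510 with a value on at least 80% of arrays were kept, the 0.0972% of missing values were set to the probe mean, and values were converted to log2. Probes of a gene were averaged, which gave 11622 named genes and 9890 unnamed probes. Symbols come from the platform annotation, updated through RefSeq. limma 3.58.1 in R 4.3.3 was run on all 21512 features (on a score, without the score's own genes), with Benjamini-Hochberg adjustment and a threshold of 0.05. It was tested on simulated data. Correlations and promoter counts used Python 3.11.15. Marker scores are mean z values of a list's measured genes over the 209 outside mice. Other genes named are, for each member, the 3 of highest r outside and the 3 inside the runs, and family list genes called in a fit, up to 4 a list with the largest difference. Hrh4, Spred1, genomic neighbours and single mice were named after their values were seen. Alternatives changed the base, array scale, probe choice, missing values, run borders, outlying arrays, titles ending in (2) and covariates. Members, lists and tests were chosen with earlier results of these data known.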

Additional observations from a re-analysis of the deposited data

How the results depend on the processing

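The median of the 5 inside minus outside differences was -0.49, and -0.15 with values read in base 2. With Tnnt1 as a covariate the median was 0.042, and the differences of Cyp2c29 (0.042 ± 0.038 SE), Spred2 (0.20) and Ift81 (0.30) changed sign. With the first principal component as a covariate, the difference between mice 51 to 90 and 271 to 310 turned to 0.16 for Ift81 and 0.12 for Pla2g12a, and that between mice 311 to 362 and 91 to 270 to -0.11 for Pla2g12a. The same covariate cut the features called with the hepatocyte score from 2812 to 1378, with the kidney score from 14770 to 5864, with the tendon score from 10800 to 1919 and with the oxidative phosphorylation score from 16139 to 3643. Under it the Cyp2c29 slope turned to -0.0068 on the kidney score, 0.0070 on the tendon score and -0.0084 on the oxidative phosphorylation score, and the Pla2g12a slope on the last to 0.061. With mouse number as a covariate, 996 features were called with the hepatocyte score and 2463 with the tendon score, and the Cyp2c29 slope on the latter was 0.0018. Ranks of the hepatocyte score, an alternative chosen after seeing the data, called 8107 features and turned the Cyp2c29 slope to -0.044. The median r with Tnnt1 outside the runs, 0.663, was 0.729 with arrays scaled to a common SD, 0.708 without 12 arrays of outlying spread, 0.724 with the first component and 0.607 with Eif2s3y as a covariate. Taken alone, Spred2 probe 10024409657 had a kidney slope of 0.073, and probe 10024393208 an oxidative phosphorylation slope of -0.11, an r with Tnnt1 of -0.011 and with Myh7 of -0.065, each opposite in sign to the mean of both. The cause of these changes was not tested. Of 389 tests of a member under an alternative, 329 kept direction and side of the threshold, 6 lost a call, 13 gained one and 41 changed sign, 11 of them given above and 30 called in neither fit. Among these 30, arrays scaled gave -0.054 for Ces5a and without mice near a border -0.016 (mice 51 to 90 against 271 to 310), where Spred2 was 0.17 with the first component and 0.024 with Tnnt1. In mice 311 to 362 against 91 to 270, Pla2g12a was -0.0046 with arrays scaled, -0.010 without border mice, -0.0054 with Tnnt1 and -0.013 with Eif2s3y, and Spred2 probe 10024393208 was 0.051. On the hepatocyte score, Cyp2c29 was -0.018 with arrays scaled and -0.018 without outlying arrays and -0.011 with Tnnt1, and Spred2 0.0034 with mouse number. On the kidney score, Spred2 was 0.064 with its probe of largest SD and 0.00076 with Tnnt1. On the white adipocyte score, Cyp2c29 was 0.013 with mouse number and 0.0043 with ranks, and Ift81 -0.010 with arrays scaled, -0.025 with mouse number and -0.0050 with ranks. On the tendon score, Pla2g12a was -0.0034 with arrays scaled and -0.032 with the first component, and Spred2 0.0067 without border mice, 0.016 with mouse number and 0.026 for probe 10024393208. On the oxidative phosphorylation score, Ces5a was -0.016 with arrays scaled, -0.017 with the first component and -0.046 with mouse number, and Spred2 -0.028 and -0.017 with the last 2. Signal over background is unknown. No paired analysis was possible because no mouse number occurs in more than 1 group.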
